A study of Rattus with 6 samples.

Results

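The genes described here are 36 glycolysis and hypoxia response genes, chosen by name from a table of 16690 genes. All 36 were found in it. They comprise 19 genes of glucose uptake, glycolysis and lactate export, called glycolytic genes below, and 17 other genes tied to the hypoxia inducible factor (HIF), called other HIF targets although they include Hif1a itself. Messenger RNA had been sequenced from bone marrow mesenchymal stem cells, which are adherent stromal cells, of Sprague Dawley rats labelled wild-type. Chronic kidney disease (CKD) model rats gave 3 libraries and healthy rats the other 3, named CKD 1 to 3 and control 1 to 3 here after the column codes, although the title of CKD 3 numbers it 4. How the disease was induced and the age of the animals were not given in the sources used here. Cells of both groups had been grown in serum-containing medium without a hypoxia treatment being mentioned. They had been described as positive for CD29 and CD90 and negative for CD34 and CD45 by flow cytometry. The extract protocol speaks of exosomes where the design text speaks of cells, and which RNA was sequenced is not settled.

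Glycolysis splits glucose into pyruvate, and cells short of oxygen turn the pyruvate into lactate. In the presence of oxygen, prolyl hydroxylases of the Egln family mark the HIF alpha subunit for destruction. When oxygen falls, the stabilised protein switches on genes for nearly every glycolytic step, together with genes of oxygen supply, mitophagy, pH control and its own hydroxylases. HIF activity is set mostly at the protein level, so transcripts of its targets are the usual readout in RNA data. Marrow is a tissue of low oxygen, and its stromal cells are known to rely heavily on glycolysis.

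Several features of the libraries bear on every value below. The libraries held between 34404037 and 46892613 recovered fragments. CKD 2 and 3 were alike, as were control 2 and 3, and the first replicate of each group stood apart from the other two. CKD 1 carries the disease model tag of a control and control 2 that of CKD, against their titles, library names and column codes, which set the groups here. The design text calls the replicates biological, but shared starts in the library names (CKD 1 with 3, control 1 with 2) make it unclear whether each had its own animal, and p-values then reflect only how these libraries vary. Of 12 stromal markers, Itgb1 (CD29) lay between 847 and 1204 FPKM and Thy1 (CD90) between 505 and 801, Cd44 between 56.8 and 91.2, Eng between 10.8 and 88.8, and Lepr at 0.109 to 0.246 in every library. Their sum, most of it collagen, was 14346, 8783 and 8546 FPKM in CKD 1, 2 and 3 and 13506, 10513 and 10859 in control 1, 2 and 3, so it was lowest in CKD 2 and 3. FPKM relate fragments to gene length and sequencing depth, so levels can be compared between genes. In contrast, 20 listed genes of haematopoietic cells and macrophages summed to 301, 3376 and 2349 FPKM in CKD 1, 2 and 3 and to 428, 23.5 and 15.3 FPKM in control 1, 2 and 3. CKD 2 and CKD 3 were thus far above the rest, and control 1 was above the other controls. The CD45 gene Ptprc was likewise highest in CKD 2 and CKD 3 and ran from 0.783 to 15.5 FPKM in CKD and from 0.014 to 1.33 in control. The same held for the lysozyme gene Lyz2, at most 2224 FPKM, and for Cd68, at most 235. Lyz2, at 232, 2224 and 1473 FPKM in CKD 1, 2 and 3, was most of the sum in each of these libraries. Cd74 did not share the order and was low throughout, at 0.018 to 0.21 FPKM in CKD and 0.0832 to 0.326 in control, highest in control 1. Adgre1 was at 0 in control 3, and all other values of the 20 markers were above 0. The 6 endothelial markers in the table summed to between 0.472 and 2.78 FPKM per library.

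Taken as a sum, transcripts of the 19 glycolytic genes were more abundant in CKD 2 and 3 than in all other libraries, and CKD 1 did not share this. The 19 glycolytic genes summed to 4304 and 4162 FPKM in CKD 2 and 3 and to 1906 FPKM in CKD 1. In control 1, 2 and 3 they summed to 2370.3, 2386 and 2391 FPKM. The controls were thus nearly equal, and the CKD libraries lay on both sides of them. By mean FPKM over the 6 libraries, the most abundant of the 36 were Gapdh (699), Eno1 (400.0), Ldha (370.4) and Pkm (327), and the most abundant other HIF target was Bnip3 (80.9). The ranges of Gapdh, Eno1, Ldha and Pkm over the libraries overlapped from each to the next. As a share of all FPKM in the table, the 19 genes made up 0.997% and 0.991% in CKD 2 and 3, 0.467% in CKD 1, and 0.569% to 0.579% in the controls. The 17 other HIF targets followed the same order, with 709 and 666 FPKM in CKD 2 and 3, 371 in CKD 1 and 425 to 449 in the controls. The haematopoietic sum was also highest in CKD 2 and 3, and the stromal sum, most of it collagen, was lowest there. The median over the stromal markers went the other way, at 227 and 218 FPKM in CKD 2 and 3 against 96.3 to 188 in the other libraries. The part of either marker list in the glycolytic and HIF target sums was not tested. In control 1, 2 and 3 the haematopoietic sums were 428, 23.5 and 15.3 FPKM, all far below the 3376 and 2349 of CKD 2 and 3. Whether they bear on the glycolytic sums of the controls was not tested. Single genes differed in both directions behind the nearly equal glycolytic sums of the controls. In control 1, 2 and 3, Gapdh was at 602, 699 and 704 FPKM and Gpi at 141, 116 and 120.1. In bulk libraries a change in the share of a cell type and a change in RNA per cell cannot be told apart.

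**Figure D1:**
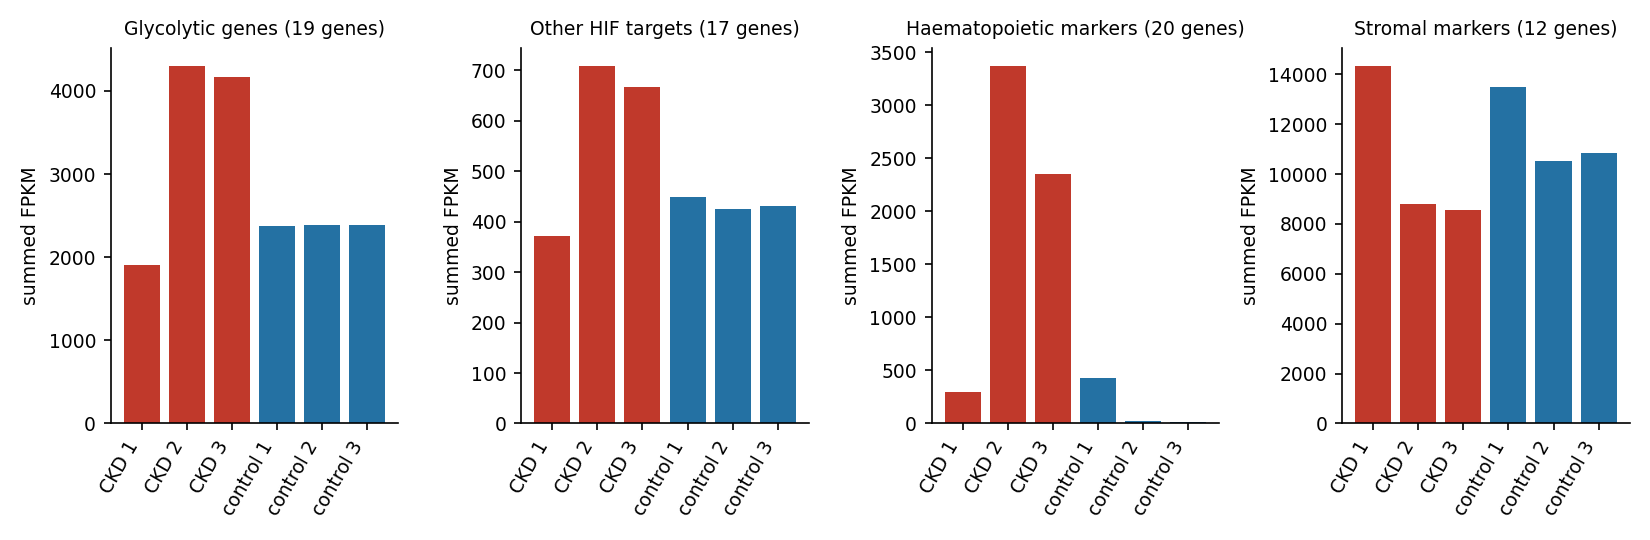
Summed FPKM per library (vertical axis, linear, from 0) of the 19 glycolytic genes, the 17 other HIF targets, 20 haematopoietic markers and 12 stromal markers, with CKD libraries in red and controls in blue. Glycolytic genes reach 4304 and 4162 FPKM in CKD 2 and 3 against 1906 to 2391 elsewhere, and haematopoietic markers are highest in the same 2 libraries.

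CKD was compared with control by limma on log2(FPKM + 1) over all 10638 genes that reached 1 FPKM in 3 or more libraries. Of the 36 genes, 33 passed this filter, 17 glycolytic genes and 16 other HIF targets. Pfkfb4, Aldoa and Egln3 did not. None of the 33 passed an adjusted p of 0.05, in a comparison that called 2.07% of all tested genes, 1.33% higher and 0.733% lower. At an unadjusted p under 0.05, limma had 6 members higher (background 14.6%) and 1 lower (background 7.51%), and limma-voom on recovered fragment counts, scaled by library totals, also called 0 at an adjusted p of 0.05 (background 0.517% higher and 0.395% lower). The median log2 fold change was 0.59 over the 17 glycolytic genes and 0.50 over the 16 other HIF targets, beside 0.053 over all tested genes. A positive log2 fold change was found for 15 of 17 glycolytic genes and 13 of 16 other HIF targets, where 59.4% of all tested genes had one. Groups did not overlap, with CKD higher, for 4 of 17 glycolytic genes and 1 of 16 other HIF targets, a share near the background of 18.3%. Bhlhe40 alone did not overlap with CKD lower (background 9.59%). Counted in either direction this made 6 of 33, at a background of 27.8%.

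The count of calls rested on CKD 1. Without it, limma called 15 of 17 glycolytic genes and 11 of 16 other HIF targets higher (background 10.7%), and Bhlhe40 lower (background 4.35%). Without the first replicate of both groups, which leaves the 2 alike pairs, it called 16 and 12 higher (background 34.7%) and again Bhlhe40 lower (background 20.3%). Both left-out libraries stood apart from their groups, and leaving them out by itself narrows the spread within groups. The libraries that remain are also those in which haematopoietic markers differ most between the groups, and the part of these markers in the calls was not tested. Without control 1 no member was called (background 6.89% higher and 5.13% lower). Sample quality weights in limma-voom gave 15 and 12 higher (background 35.5%) and Bhlhe40 lower (background 20.4%). With the mean of the haematopoietic markers as a covariate, the median log2 fold change was -0.076 for the glycolytic genes and -0.089 for the other HIF targets. No member was called, in a fit that called only 7 higher and 11 lower of all 10638 tested genes. Log2 fold changes in that fit were 0.34 for Slc2a1, 0.45 for Pfkl, 0.27 for Pfkfb3, 0.20 for Tpi1, 0.13 for Ldha, 0.57 for Car9 and 0.78 for Ndrg1, against 1.15, 1.41, 1.03, 0.94, 0.79, 1.41 and 1.28 without the covariate. The covariate itself is highest in CKD 2 and 3, and its part in the differences was not tested.

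**Figure D2:**
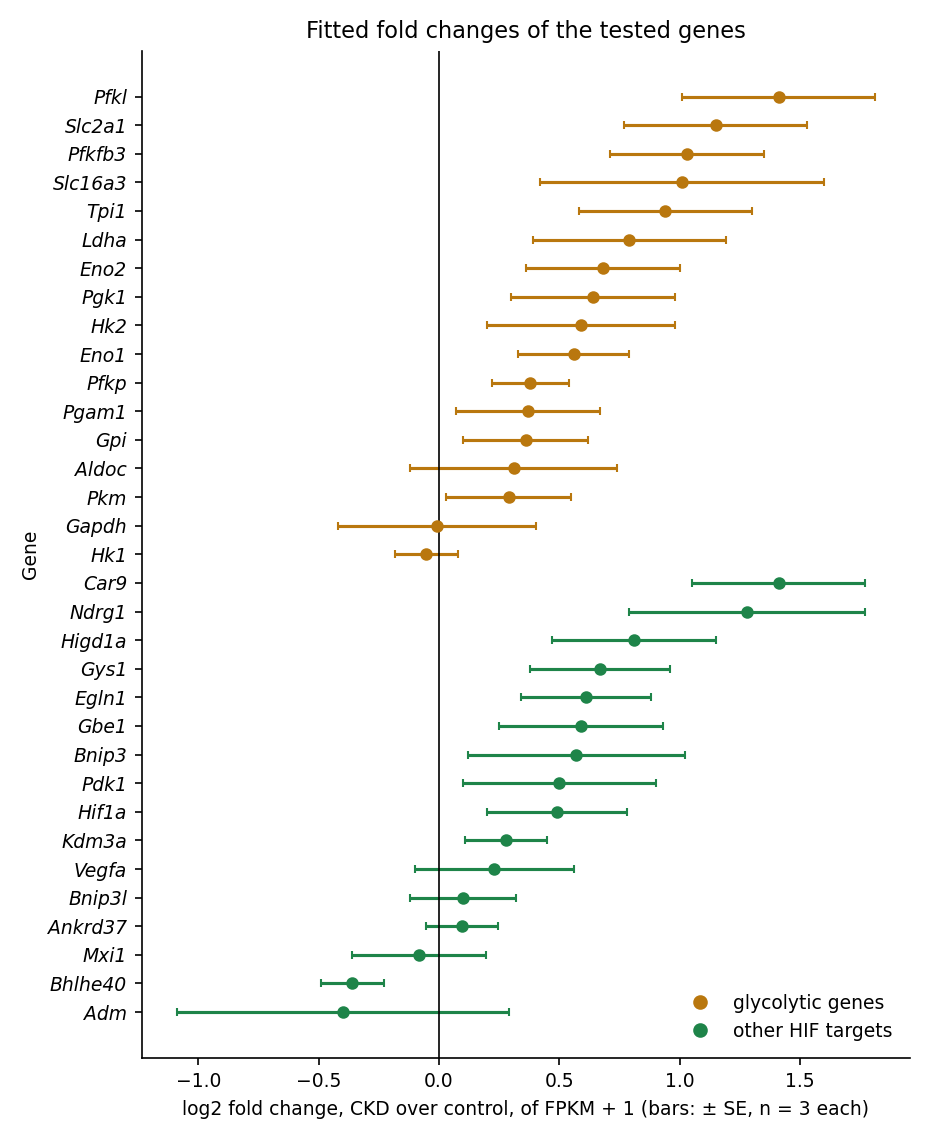
Log2 fold change of CKD over control on the log2(FPKM + 1) scale (horizontal axis) with its standard error (bars) for the 33 tested genes (n = 3 each), glycolytic genes in brown and other HIF targets in green. Pfkl and Car9 have the highest values, 1.41 each, and 5 genes lie below 0.

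Among the glycolytic genes, Pfkl, Slc2a1, Pfkfb3 and Slc16a3 had log2 fold changes of 1 or more. Their order depended on the libraries, since Slc16a3 had the lowest of these 4 values over all libraries (1.01) but came next to Pfkl without CKD 1 (1.71, against 1.60 for Slc2a1 and 1.37 for Pfkfb3). Slc2a1 (NCBI Gene 24778) encodes GLUT1, the main basal glucose transporter. It stood at 23.4, 63.1 and 58.7 FPKM in CKD 1, 2 and 3 and at 20.7, 17.8 and 20.1 in control 1, 2 and 3. Every CKD library was above every control, although CKD 1 exceeded the highest control by little. The log2 fold change was 1.15 ± 0.38 SE (limma adjusted p = 0.165).

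Hexokinases trap glucose in the cell by phosphorylating it. Hk1, the housekeeping isoform, lay at 28.2, 32.7 and 36.6 FPKM in CKD and 29.3, 35.5 and 36.2 in control, and the groups covered the same range. Hk2, the inducible isoform and a well known HIF target, stood at 7.57, 20.4 and 20.7 FPKM in CKD against 7.6, 10.4 and 11 in control. CKD 2 and 3 were the highest libraries and the 2 first replicates the lowest. Gpi, the isomerase of the next step, measured 108, 202 and 194 FPKM in CKD and 141, 116 and 120.1 in control, with CKD 1 below all controls.

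Phosphofructokinase is the committed and most regulated step. Pfkl (NCBI Gene 25741), the liver-type subunit, stood at 16.7, 45.2 and 43.1 FPKM in CKD 1, 2 and 3 and at 14.4, 10.4 and 9.94 in control 1, 2 and 3. The groups did not overlap, and the 2 first replicates were the closest to each other. Its log2 fold change was 1.41 ± 0.40 SE (limma adjusted p = 0.131). Pfkp, the platelet-type subunit, ran from 4.96 to 7.69 FPKM in CKD and from 4.55 to 5.14 in control (limma log2 fold change 0.38 ± 0.16 SE, adjusted p = 0.230). Pfkm, the muscle-type subunit and no member of the set, was lower in all CKD libraries, at 9.11, 10.3 and 10.5 FPKM against 12.6, 11.9 and 12.6 (limma log2 fold change -0.29 ± 0.078 SE, adjusted p = 0.122).

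The bifunctional enzymes of the Pfkfb family make fructose-2,6-bisphosphate, the strongest activator of phosphofructokinase. Pfkfb3 (NCBI Gene 117276), the form with the highest kinase activity, measured 4.10, 10.1 and 8.33 FPKM in CKD and 3.82, 2.87 and 2.32 in control. The groups did not overlap, but CKD 1 lay only just above control 1. The log2 fold change was 1.03 ± 0.32 SE (limma adjusted p = 0.147). Pfkfb4 stayed near or below 1 FPKM, at 0.496, 0.889 and 1.16 FPKM in CKD and 0.587, 0.620 and 0.466 in control, and did not reach the filter.

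Aldolase cleaves the sugar into triose phosphates. Aldoc was at 7.06, 21.7 and 22.8 FPKM in CKD and 10.7, 12.6 and 13.3 in control. Aldoa, usually the main aldolase of mesenchymal cells, was listed at only 0.435, 0.776 and 0.822 FPKM in CKD and 0.424, 0.312 and 0.487 in control, from 21 to 57 fragments per library. This is far below Tpi1 and Gapdh, the next enzymes, which lay above 100 FPKM in every library. In the gene table of a different assembly, GRCr8, the protein-coding gene LOC103691235 overlaps Aldoa, and 9 pseudogenes are named after Aldoa. LOC103691235 itself was at 0 to 0.0894 FPKM here. How fragments shared between such genes were counted is not given, its part in the low value was not tested, and Aldoa is therefore uncertain.

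Tpi1 (NCBI Gene 24849), which interconverts the triose phosphates, stood at 175, 443 and 416 FPKM in CKD and 168, 169 and 161 in control. The control values were close together, and CKD 1 lay just above them (limma log2 fold change 0.94 ± 0.36 SE, adjusted p = 0.212). Gapdh, the next enzyme and the most abundant of the 36 transcripts, showed the widest gap in FPKM among the CKD libraries. It measured 342, 947 and 899 FPKM in CKD against 602, 699 and 704 in control, so CKD 1 was the lowest library and CKD 2 and 3 the highest. The log2 fold change was -0.0082 ± 0.41 SE, and its sign changed with the libraries included.

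Pgk1, which makes the first ATP of the pathway, measured 206, 494 and 456 FPKM in CKD and 252, 224 and 215 in control. Pgam1, a mutase, was at 164, 346 and 345 FPKM in CKD and at 209.6, 206 and 212 in control. In both, CKD 1 was below all controls. Eno1, the main enolase, measured 330.3, 561 and 553 FPKM in CKD and 349, 300.2 and 307 in control (limma log2 fold change 0.56 ± 0.23 SE, adjusted p = 0.228). Eno2, an enolase best known from neurons and also a HIF target, was between 0.0450 and 0.0599 times as abundant, at 15.7, 33.6 and 32.7 FPKM in CKD and 19.7, 14.5 and 13.8 in control.

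Pyruvate kinase and lactate dehydrogenase end the pathway. Pkm stood at 234, 429.9 and 437 FPKM in CKD and 304, 281 and 279.6 in control. Ldha (NCBI Gene 24533), which turns pyruvate into lactate, measured 231, 618 and 602 FPKM in CKD and 224, 275 and 272 in control. Its 2 first replicates were the lowest libraries and nearly equal, while CKD 2 and 3 were 2.23-fold above control 2 and 3 (log2 fold change over all libraries 0.79 ± 0.40 SE, limma adjusted p = 0.311). Slc16a3, which encodes the lactate exporter MCT4, was at 5.75, 27.5 and 28.9 FPKM in CKD and 8.91, 6.84 and 8.13 in control. Its CKD libraries lay on both sides of the controls.

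**Figure D3:**
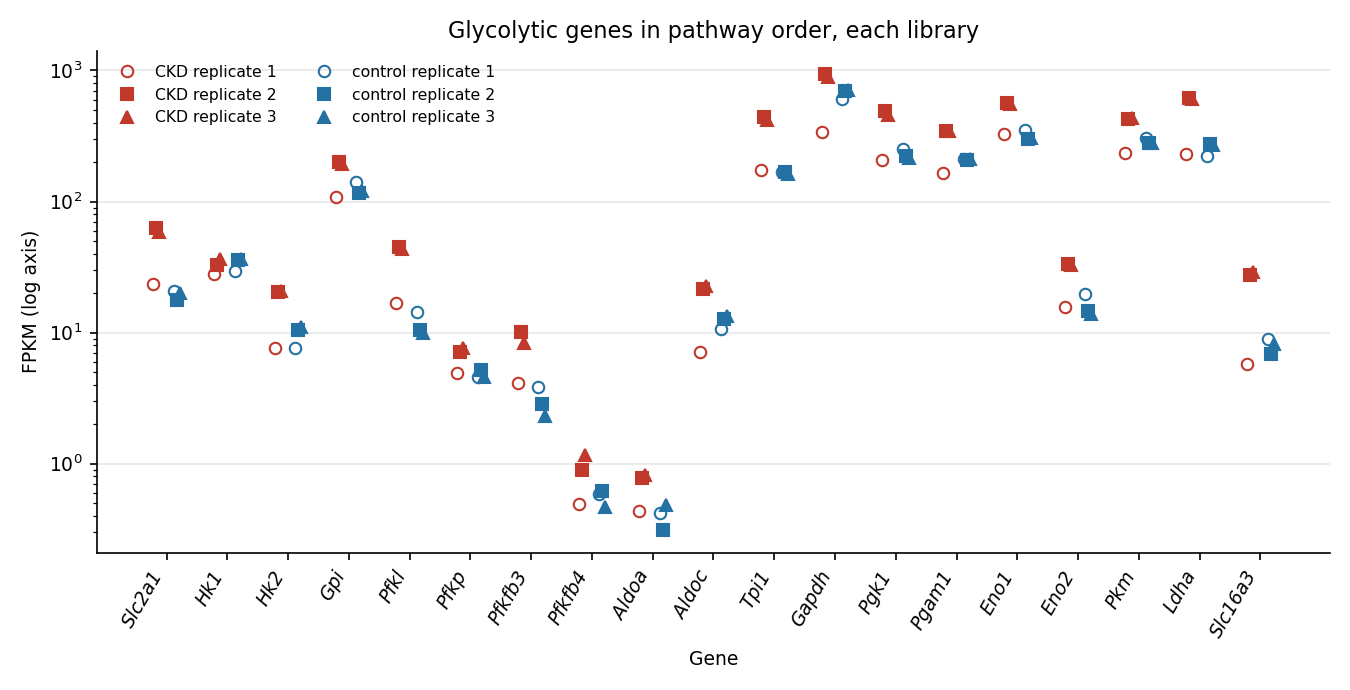
FPKM (log axis) of the 19 glycolytic genes in pathway order in each library, with CKD in red, controls in blue and the first replicate of each group as open circles. CKD 2 and 3 sit above all other libraries for every tested gene but Hk1, and the open red circle is the lowest point for 9 of the 17 tested genes.

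Among the sensors and regulators of the response, Hif1a (NCBI Gene 29560), the alpha subunit of HIF-1, stood at 50.7, 107 and 93.8 FPKM in CKD and 62.1, 52.0 and 56.3 in control. CKD 1 was the lowest library and the other CKD libraries the highest (limma log2 fold change 0.49 ± 0.29 SE, adjusted p = 0.362). Egln1 (PHD2), the main oxygen sensor and itself a HIF target, measured 7.57, 15.9 and 15.4 FPKM in CKD and 7.88, 7.94 and 7.48 in control (limma log2 fold change 0.61 ± 0.27 SE, adjusted p = 0.262). Egln3 (PHD3), the most strongly hypoxia-induced hydroxylase in many cells, was close to absent outside CKD 2 and 3. It gave 0, 86 and 139 fragments in CKD 1, 2 and 3 and 2, 4 and 1 fragments in control 1, 2 and 3, and it was not tested. The authors' deposited table gives Egln3 a log2 fold change of 5.01 at a q-value of 0.0224.

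Car9 (NCBI Gene 313495), a carbonic anhydrase of the cell surface that buffers pH and a classic HIF-1 target, had the lowest p of the 33 genes. It measured 8.44, 20.8 and 21.0 FPKM in CKD 1, 2 and 3 and 6.34, 4.65 and 4.75 in control 1, 2 and 3. All CKD libraries were above all controls, with a log2 fold change of 1.41 ± 0.36 SE (limma adjusted p = 0.108). Ndrg1 (NCBI Gene 299923), a stress-response gene, stood at 17.3, 53.3 and 52.0 FPKM in CKD and 9.61, 17 and 18.1 in control. CKD 1 was 1.80-fold above control 1, the largest such ratio among the tested members, but lay within the range of the controls (limma log2 fold change 1.28 ± 0.49 SE, adjusted p = 0.206).

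Bnip3 and Bnip3l are mitophagy receptors, which mark mitochondria for removal. Bnip3 measured 42.4, 138 and 124 FPKM in CKD, while its control values were almost equal at 60.3, 60.4 and 60.3. Bnip3l showed the same order of libraries in a narrower range, from 17.2 to 30.2 FPKM in CKD and from 21.5 to 24.3 in control. Pdk1, the kinase that keeps pyruvate out of the mitochondria, stood at 5.12, 15.6 and 15.1 FPKM in CKD and 7.36, 7.17 and 7.42 in control. Higd1a, a small protein of the respiratory chain, was at 31.3, 78.9 and 65.9 FPKM in CKD and 31.3, 33.3 and 28.1 in control (limma log2 fold change 0.81 ± 0.34 SE, adjusted p = 0.240). For Bnip3, Bnip3l and Pdk1, CKD 1 was thus the lowest library and CKD 2 and 3 the highest.

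Glycogen synthesis is a further arm of the response. Gys1, glycogen synthase, stood at 16.3, 32.6 and 34.4 FPKM in CKD and 17.8, 15.7 and 15.1 in control (limma log2 fold change 0.67 ± 0.29 SE, adjusted p = 0.243). Gbe1, the branching enzyme, was at 5.61, 14.4 and 13.9 FPKM in CKD and 6.26, 6.87 and 6.78 in control. Kdm3a, a histone demethylase, ran from 5.08 to 8.33 FPKM in CKD and from 5.17 to 5.79 in control. In these 3 genes, too, CKD 2 and 3 were the highest libraries.

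A smaller set of HIF targets did not share the pattern, or only by a narrow margin. Bhlhe40 (DEC1), a transcriptional repressor also driven by other stresses and by the clock, was lower in every CKD library, at 73.5, 57.4 and 59.1 FPKM against 89.6, 76.3 and 77.9 (limma log2 fold change -0.36 ± 0.13 SE, adjusted p = 0.180). Vegfa, the angiogenic growth factor, was highest in both first replicates, at 71.4 FPKM in CKD 1 and 78.9 in control 1. It measured 53.4 and 48.0 FPKM in CKD 2 and 3 and 38.9 and 36.8 in control 2 and 3. Adm, which encodes the vasodilator adrenomedullin, showed the opposite split, with 13.5 FPKM in CKD 1 and 35.6 in control 1 against 65.5 to 73.1 in the other 4 libraries. Mxi1, an antagonist of Myc, ran from 5.02 to 10.5 FPKM in CKD and from 7.33 to 10.0 in control, and Ankrd37, an ankyrin repeat protein, from 1.12 to 1.73 and from 0.935 to 1.53. For these last 4 genes the 2 groups overlapped, and the log2 fold changes lay between -0.40 for Adm and 0.23 for Vegfa.

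**Figure D4:**
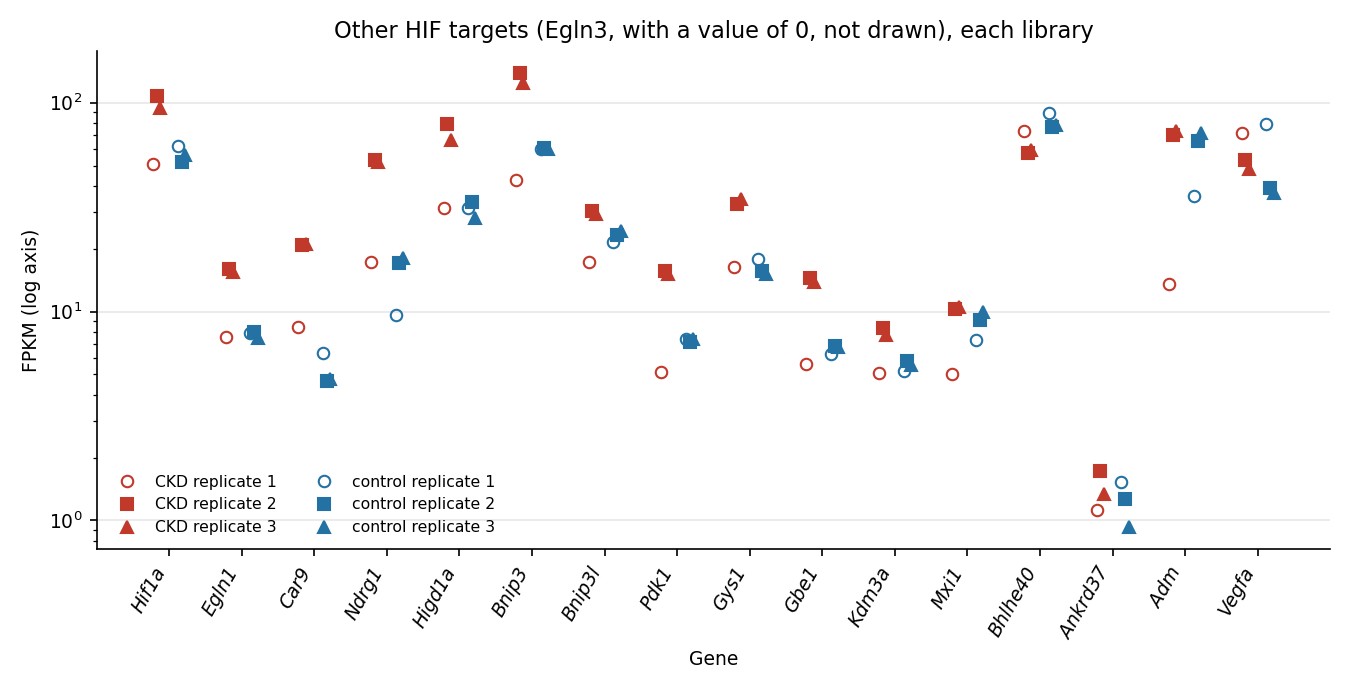
FPKM (log axis) of 16 other HIF targets in each library, with CKD in red, controls in blue and the first replicate of each group as open circles. CKD 2 and 3 are the highest libraries for 12 of the 16 genes, the exceptions being Bhlhe40, Ankrd37, Adm and Vegfa.

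The libraries were therefore set against each other in 2 sets, the first and the later replicates. This split followed from the values above, so the counts below describe the pattern and do not test it. CKD 2 and 3 were the 2 highest libraries for 16 of 17 glycolytic genes and 12 of 16 other HIF targets, a pattern found in 29.5% of all tested genes. CKD 1 was the lowest library for 9 of 17 and 8 of 16, against 21.1% of all tested genes. Both held at once for 15 of 33 members and for 6.75% of all tested genes. Between CKD 2 and 3 and control 2 and 3, the median difference on the log2(FPKM + 1) scale was 0.88 for the glycolytic genes and 0.91 for the other HIF targets, beside 0.079 over all tested genes. It was above 0 for 31 of 33 members and 59.9% of all tested genes, and reached at least 1 for 13 of 33 members and 5.29% of all tested genes. Between CKD 1 and control 1 the medians were -0.078 and -0.20, beside 0.0040 over all tested genes, and 9 of 33 members were higher in the CKD library (50.8% of all tested genes). The 9 were Slc2a1, Pfkl, Pfkp, Pfkfb3, Tpi1, Ldha, Car9, Ndrg1 and Higd1a. For 15 listed genes of the cell cycle, in comparison, the medians were 1.44 in the later replicates and 1.31 in the first. Of these 15, Top2a, Cdk1, Plk1, Aurka, Bub1, Mcm2, Mcm3 and Ccna2 were called higher by limma, 8 genes where the background was 1.33%. The count was 3 in limma-voom (Plk1, Aurka and Mcm2, background 0.517%) and 2 without a filter on low values. It was 0 by the disease model tag, with the haematopoietic covariate, or without CKD 2, CKD 3, control 2 or control 3. Those settings called few genes higher among all tested genes, 0, 7, 3, 1, 1 and 1 in this order. All 15 genes had a positive log2 fold change in each of them. The medians were 0.82 by the tag, 1.26 with the covariate and 1.3 to 1.63 in the rest.

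**Figure D5:**
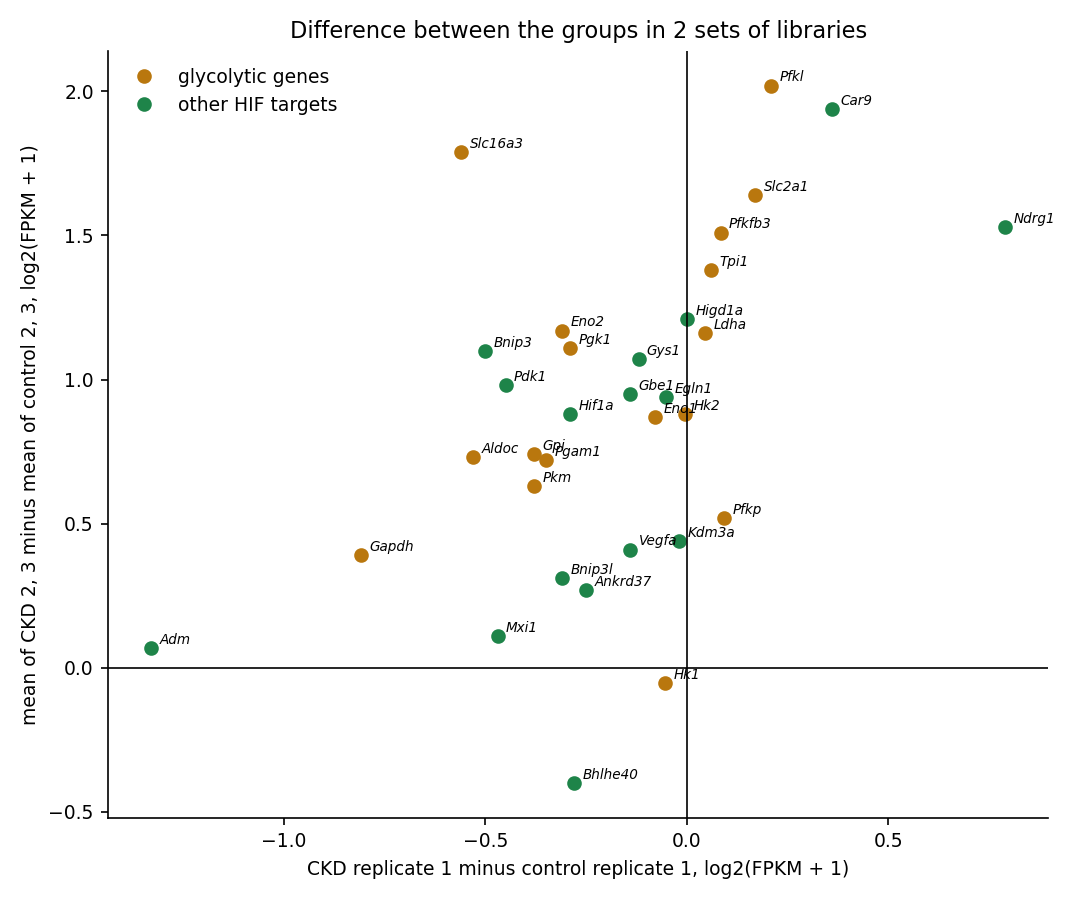
Difference between CKD and control in the first replicates (horizontal axis) and between the means of replicates 2 and 3 (vertical axis), both on the log2(FPKM + 1) scale, for each of the 33 tested genes. All genes but Hk1 and Bhlhe40 lie above 0 on the vertical axis, while 24 of 33 lie below 0 on the horizontal axis.

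With libraries grouped by the disease model tag, the median log2 fold change was 0.72 for the glycolytic genes and 0.65 for the other HIF targets, against 0.59 and 0.50 by the other labels. That grouping called no gene at all. It puts control 2 with CKD 2 and 3. For 7 of 33 members (Pfkp, Ldha, Bnip3, Egln1, Higd1a, Kdm3a and Gbe1) every library tagged CKD was above every other library. This held for 6.38% of all tested genes, and the opposite direction was not counted.

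Ratios between 2 genes in the same library do not depend on how libraries are scaled, and 9 were compared by exact two-sided permutation tests over the 6 libraries, whose smallest possible p is 0.10. None passed. On the log2 scale, Pfkp over Pfkl was -1.76, -2.67 and -2.49 in CKD 1, 2 and 3 and -1.65, -1.01 and -1.13 in control 1, 2 and 3 (difference -1.04, exact p = 0.10, adjusted p = 0.30). The groups did not overlap, but CKD 1 was close to control 1 and far from the other CKD libraries. Pfkfb4 over Pfkfb3 averaged -3.13 and -2.41 (difference -0.73, exact p = 0.10, adjusted p = 0.30), and Pkm over Pgk1 -0.027 and 0.32 (difference -0.35, exact p = 0.10, adjusted p = 0.30). Ldha over Ldhb, which weighs the lactate-forming against the lactate-using subunit, was 5.99 and 5.86 in CKD 2 and 3 and 3.92 in CKD 1, against 4.19, 3.94 and 3.90 in control (exact p = 0.30, adjusted p = 0.45). Hk2 over Hk1 was -0.68 and -0.82 in CKD 2 and 3 and between -1.95 and -1.72 in the other 4 libraries (exact p = 0.30, adjusted p = 0.45). Eno2 over Eno1, Bnip3 over Bnip3l, Slc16a3 over Slc16a1 and Aldoc over Aldoa also had overlapping groups, and Egln3 over Egln1 was left out because Egln3 was 0 in 1 library.

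Other genes of the same pathways were taken from lists. Over all tested genes, 59.4% had a positive log2 fold change. Of 25 further tested genes of glycolysis and pyruvate use, 13 had a positive and 12 a negative log2 fold change (median 0.013), none was called, and CKD 2 and 3 were the highest libraries for 8. Pdha1, a subunit of pyruvate dehydrogenase, was lower in all CKD libraries, at 37.0, 35.4 and 35.3 FPKM against 43.0, 40.9 and 40.3 (limma log2 fold change -0.20 ± 0.066 SE, adjusted p = 0.163). Hk3, a hexokinase of blood cells named here after its values were seen, stood at 18.1 and 15.0 FPKM in CKD 2 and 3, 1.06 in CKD 1, 2.19 in control 1, and 0.11 and 0.128 in control 2 and 3. Its log2 fold change was 3.46 without CKD 1 (limma adjusted p = 0.0206) and 0.016 with the haematopoietic covariate (limma adjusted p = 0.996). As in the haematopoietic sum, control 1 was above CKD 1 and the other controls were lowest. Of 6 tested genes of the pentose phosphate pathway 5 had a positive log2 fold change and none was called. Tkt, its transketolase, measured 62.9, 97.2 and 94.9 FPKM in CKD and 56.4, 56.2 and 58.1 in control (limma log2 fold change 0.54 ± 0.18 SE, adjusted p = 0.163). It was 0.74 without CKD 1 (limma adjusted p = 0.00706) and 0.22 with the covariate (limma adjusted p = 0.773). Rpe, an epimerase, had a log2 fold change of 0.20 ± 0.071 SE (limma adjusted p = 0.180). Among 9 tested genes of glycogen handling none was called. Gaa, the lysosomal glucosidase, had a log2 fold change of -0.22 ± 0.076 SE and Gyg1, glycogenin, -0.48 ± 0.17 SE (limma adjusted p = 0.175 and 0.182). Without control 1 Gyg1 passed, at -0.66 (limma adjusted p = 0.0252), and with the covariate it was -0.13 (limma adjusted p = 0.843). Of 12 tested genes of mitochondrial respiration, 10 had a positive log2 fold change (median 0.16) and none was called. The lowest p belonged to Idh2, an isocitrate dehydrogenase, at 28.5, 48.3 and 45.4 FPKM in CKD and 24.9, 23.1 and 21.2 in control (limma adjusted p = 0.126). Cox4i2, an oxygen-regulated subunit of cytochrome oxidase, followed, at 1.48, 18.5 and 14.5 FPKM in CKD and 1.14, 0.269 and 0.0732 in control (limma adjusted p = 0.148).

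Among 28 tested genes listed as further HIF targets, 22 had a positive log2 fold change (median 0.41), as had 59.4% of all tested genes. Of the 28, limma called 2 higher (background 1.33%) and none lower (background 0.733%). Slc6a6, the taurine transporter, rose to 35.9, 36.5 and 39.4 FPKM in CKD 1, 2 and 3 from 11.6, 12.3 and 11 in control 1, 2 and 3 (limma log2 fold change 1.60 ± 0.076 SE, adjusted p = 0.00275). All 3 CKD libraries were alike and lay above all controls. Jmjd6, a hydroxylase of the Jumonji family, rose to 6.95, 8.33 and 8.22 FPKM from 4.72, 5.14 and 4.53 (limma log2 fold change 0.61 ± 0.094 SE, adjusted p = 0.0447). Slc6a6 was called without each library in turn (limma adjusted p between 0.00456 and 0.0422). The call of Jmjd6 was lost without CKD 2, CKD 3, control 2 or control 3 (limma adjusted p = 0.202, 0.231, 0.153 and 0.222). Of 16 tested genes of the oxygen-sensing machinery none was called and the median was 0.11. Epas1, which encodes the alpha subunit of HIF-2, stood at 2.16, 18.8 and 19.6 FPKM in CKD and at 1.04, 1.04 and 1.06 in control (limma log2 fold change 2.41 ± 0.74 SE, adjusted p = 0.148). Its log2 fold change was 3.30 without CKD 1, where it passed (limma adjusted p = 0.00109), and 0.92 with the haematopoietic covariate (limma adjusted p = 0.747). Cul2, the scaffold of the ubiquitin ligase that removes HIF, measured 12.7, 12.7 and 13.2 FPKM in CKD and 11.3, 10.3 and 10.8 in control (limma log2 fold change 0.23 ± 0.067 SE, adjusted p = 0.136).

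In the authors' deposited table, 7 of the 36 genes had a q-value under 0.05, all higher in CKD, where 6.72% of the table was higher and 4.6% lower at that level. They were Car9 (log2 fold change 1.58, q = 0.000835), Pfkl (1.5, q = 0.00292), Slc2a1 (1.21, q = 0.0140), Pfkfb3 (1.23, q = 0.0160), Egln3, Ndrg1 (1.36, q = 0.0340) and Tpi1 (0.96, q = 0.0464) in the authors' deposited table. Except Egln3, which was not tested here, these are the 6 members that limma placed higher at an unadjusted p under 0.05. Both rest on the same 6 libraries.

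Copies of some members make their values uncertain. The reference table names pseudogenes after 13 of the 36 genes, 8 of them glycolytic, and none after Slc2a1, Pfkl, Pfkfb3, Slc16a3 or Car9. It lists 81 pseudogenes after Gapdh, 31 after Eno1, 30 after Ldha, 19 after Pkm, 13 after Pgam1 and 8 each after Pgk1 and Bnip3. Copies listed as genes in the deposited table included RGD1562690, described as similar to Ldha, at 14.7, 43.9 and 42.1 FPKM in CKD and 16.0, 19.9 and 18.9 in control, between 6.35% and 7.23% of Ldha in every library. LOC100362738, described as like the M2 form of pyruvate kinase, stood at 60.3, 121 and 119.5 FPKM in CKD and 29.3, 71.9 and 72.0 in control, between 9.64% and 28.0% of Pkm. Its share was thus less even over the libraries, with control 1 lowest. These copies were picked after their values were seen. Protein-coding neighbours overlap Tpi1 (Spsb2), Slc16a3 (Csnk1d), Ankrd37 (Lrp2bp) and Higd1a (Ccdc13) in the reference table, and whether counting used strand is not given in the sources used here.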

How the data were processed

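The authors deposited 1 table that holds, per the file headers, FPKM for each library, group means of normalized counts, and their own fold change, log2 fold change, p-value and q-value. The submitters' processing notes name HISAT2 2.1.0, HTSeq 0.11.2, FastQC 0.11.9, SAMtools 1.9, DESeq 1.34.1, DESeq2 1.22.2 and the build mRatBN7.2, without order or settings. Libraries were poly-A selected with a stranded kit, per the labels' protocols. Numbers were read with decimal commas, and the lowest mean normalized count was 1.03. Fragment counts were recovered from the FPKM and group means (100% of 100140 values whole within 0.01) and used for depth and limma-voom. CKD and control were compared with limma 3.58.1 (R 4.3.3), with a mean-variance trend, on log2(FPKM + 1) of the 10638 genes that reached 1 FPKM in 3 or more libraries (6052 did not), with Benjamini-Hochberg adjustment at 0.05. The scale understates changes of low genes. The fit was also run on simulated counts in which no library stood apart from its group. That setting differs from these data, so the run says nothing about the calls here. Ratios used exact permutation tests (scipy 1.17.1).

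The members and gene lists were chosen with earlier results of these data known. All members are named, and fold changes and p-values are given for the 6 with the lowest p in each class and for Hif1a, Egln1, Egln3, Slc2a1 and Ldha, with the sizes of others where a comparison needed them. Of each pathway list, called genes and the 2 with the lowest p are named, and of marker lists also others. All 36 identifiers were found in a gene table of assembly GRCr8, used for names, copies and overlaps only. Sequences and coordinates were not used here.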

Additional observations from a re-analysis of the deposited data

How the results depend on the processing

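Members called higher numbered 0 in both classes under a pseudocount of 0.1, no filter, upper quartile or size factor scaling, limma-voom, the haematopoietic covariate and groups by the disease model tag. They numbered 5 glycolytic genes and 7 other HIF targets without both libraries with conflicting tags. That setting called 237 of all 10638 tested genes higher, and it leaves out CKD replicate 1. The numbers were 15 and 12 in limma-voom with sample quality weights, and 16 and 12 without both first replicates. Leaving out 1 replicate in turn gave 0 to 15 and 0 to 11, with the upper values without CKD replicate 1 and 0 otherwise. Bhlhe40 was the 1 member called lower, without CKD replicate 1, without both first replicates and in limma-voom with sample quality weights (range 0 to 1). Over all genes, 142 higher and 78 lower calls became 81 higher without a filter, 55 and 42 in limma-voom, 3779 and 2174 with sample quality weights, 237 higher without both libraries with conflicting tags, 3689 and 2162 without both first replicates, 7 and 11 with the covariate, and 0 and 0 by the tag. Leave-one-out gave 1 to 1139 higher (most without CKD replicate 1) and 5 to 546 lower (most without control replicate 1). The replicate number did not pair the libraries (correlations of same-numbered deviations 0.0360, -0.0313 and 0.109). The replicate block gave 60 higher and 28 lower calls and changed no call of a member. Not every library correlated best with its own number. Of the further HIF targets called, Slc6a6 lost its call by the tag (limma adjusted p = 0.759). Jmjd6 lost its call by the tag (0.683), with the replicate block (0.0823), without a filter (0.0652), in limma-voom (0.0581) and with the covariate (0.263).

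Medians reversed only with the covariate, at -0.076 and -0.089, and left-out replicates moved them within 0.41 to 1.02 and 0.27 to 0.87. With the covariate, log2 fold changes reversed to -0.24 for Gpi, -0.42 for Aldoc, -0.12 for Pgk1, -0.23 for Pgam1, -0.10 for Eno2, -0.25 for Pkm, -0.27 for Slc16a3, -0.30 for Pdk1, -0.33 for Bnip3, -0.25 for Bnip3l, -0.18 for Ankrd37, -0.15 for Hif1a and -0.033 for Gbe1. All other members with a positive value were closer to 0 in that fit. By the disease model tag they were 0.16 for Hk1, 0.68 for Gapdh, -0.35 for Vegfa, 1.06 for Adm and 0.42 for Mxi1. Without both libraries with conflicting tags they were 0.083 for Hk1, 0.50 for Gapdh, -0.091 for Vegfa, 0.50 for Adm and 0.25 for Mxi1. With sample quality weights they were 0.34 for Gapdh, 0.030 for Adm and 0.11 for Mxi1, and without both first replicates 0.39, 0.068 and 0.11. Left-out replicates gave ranges of -0.15 to 0.042 for Hk1, -0.27 to 0.47 for Gapdh, -0.033 to 0.36 for Bnip3l, -0.80 to 0.37 for Adm, -0.0071 to 0.19 for Ankrd37 and -0.24 to 0.22 for Mxi1. The ratio of Aldoc over Aldoa reversed to 0.065 with 1 FPKM added to both. The cause was not tested for any of these. Aldoa and Egln3 rest on few fragments, and 3 libraries a group limit every test.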
